A study of Mus musculus with 8 samples.

Results

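The angiopoietins, the vascular endothelial growth factors (VEGF) and their receptors were followed in the ovaries of lethal yellow (LY) mice given pioglitazone or vehicle. The members are Vegfa, Vegfb, Vegfc, Pgf, Angpt1 and Angpt2 among the ligands and Kdr, Flt1, Tek and Tie1 among the receptors. They were taken by gene symbol from the platform annotation, in which 10 of the 36227 probes carry 1 of these 10 symbols, 1 probe for each gene. The ovarian RNA of each mouse was hybridized to a CodeLink whole mouse array of its own. All mice were females of the genotype C57BL/6J Ay/a, whose agouti allele is active in most tissues and which become obese and insulin resistant with age. From 120 to 180 days of age 4 mice were gavaged daily for 60 days with 0.1 ml DMSO alone (vehicle), and 4 with pioglitazone, a thiazolidinedione that activates PPARγ. The deposited design gives its dose as 0.1 mg per day, while the paper's text gives another dose. Non-mutant a/a mice were not analysed here, so that every sample carries the Ay allele. Mice came from 1 breeding colony, whole trimmed ovaries were extracted, and no stage of the estrous cycle is given.

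VEGF-A is the main growth signal for blood vessel endothelium and acts through KDR (VEGFR2), while FLT1 (VEGFR1) binds VEGF-A, VEGF-B and placental growth factor (encoded by Pgf) and can act as a decoy. VEGF-C acts mainly on lymphatic endothelium through FLT4. Angiopoietin 1 activates TEK (the TIE2 receptor) and stabilises vessels, angiopoietin 2 can oppose it where vessels are remodelled, and TIE1 is a partner receptor of TEK. In the ovary, vessels grow and regress with each cycle, in the theca around growing follicles and most densely in the corpus luteum, where granulosa-derived luteal cells make much VEGF-A.

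The promoters of the VEGF ligands are shown because Vegfb was the steadiest and Vegfc the most variable of the members tested, with Vegfa between them. Each sequence is the 250 bases before an annotated start of the gene in RefSeq (GRCm38.p6), read 5′ to 3′ on the strand of the gene. Capitals mark the GC box GGGCGG on either strand, a motif bound by Sp1-type factors. The windows are chr17:46032378-46032627 (minus strand) for Vegfa, chr19:6987652-6987901 (minus strand) for Vegfb and chr8:54077282-54077531 (plus strand) for Vegfc.
Vegfa: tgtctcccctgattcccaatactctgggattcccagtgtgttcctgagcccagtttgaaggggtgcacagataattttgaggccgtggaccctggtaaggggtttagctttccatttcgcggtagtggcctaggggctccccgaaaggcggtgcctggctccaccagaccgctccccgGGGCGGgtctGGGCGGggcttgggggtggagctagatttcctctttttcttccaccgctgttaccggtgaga
Vegfb: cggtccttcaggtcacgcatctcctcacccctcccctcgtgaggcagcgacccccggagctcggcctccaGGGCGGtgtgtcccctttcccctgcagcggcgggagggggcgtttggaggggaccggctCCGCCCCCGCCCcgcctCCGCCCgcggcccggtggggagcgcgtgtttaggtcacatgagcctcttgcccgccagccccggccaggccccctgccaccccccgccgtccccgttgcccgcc
Vegfc: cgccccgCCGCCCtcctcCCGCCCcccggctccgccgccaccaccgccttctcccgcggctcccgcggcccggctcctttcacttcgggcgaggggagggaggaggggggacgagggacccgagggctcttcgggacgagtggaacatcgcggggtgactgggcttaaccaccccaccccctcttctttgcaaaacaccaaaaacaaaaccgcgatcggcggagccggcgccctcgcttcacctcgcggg
The Vegfa window holds 2 GC boxes, the Vegfb window 4 and the Vegfc window 2, and 32.7% of 32851 promoter windows of this length hold at least 1. Promoters of 8 of the 10 members were in the table, with 10 starts in all. A direct repeat of AGGTCA with 1 base of any kind between the copies, the form of element bound by PPAR and RXR, was searched on both strands and was in 0 of these 10 windows and in 0.0335% of all windows. The core ACGTG of hypoxia response elements was in 1 of the 10, that of a second Vegfa start, against 16.6% of all windows. The window of that start lies inside the gene, as do those of Kdr and Flt1, both of Pgf and most of that of Tek. Elements farther than 250 bases before a start were not searched.

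Values are relative intensity units, which the authors obtained by subtracting background and dividing each array by its median, and the limit of sensitivity in the methods is 0.2. Each array was divided by its median again, and log2 values were compared with limma over 30634 probes that reached a mean of 0.2 in at least 1 group. On every array the deposited median lay between 1.0068 and 1.0139, and 82.7% to 84.0% of probes reached 0.2. Ovarian markers were measured in all mice: 14 of 14 oocyte genes and 11 of 13 granulosa genes of the lists used were tested. In this test 0 probes passed an adjusted p of 0.05, and 1685 probes (5.5%) had an unadjusted p under 0.05 in limma, 1.97% higher and 3.53% lower with pioglitazone. The summed adipocyte list (9 genes) was at 163.0 in pioglitazone mouse 1 and between 33.97 and 93.19 in the other mice. On the luteal list (11 genes) mice 2 and 3 of each group had mean log2 values of 4.77 to 5.20 and mice 1 and 4 of 3.33 to 3.97.

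No member tested in limma was called for pioglitazone against vehicle after adjustment over the whole table. Kdr, Tie1, Vegfa, Vegfb and Angpt2 had means 0.886 to 0.991 times those of vehicle, Tek, Vegfc and Pgf had means 1.17, 1.15 and 1.31 times theirs, and the probes of Angpt1 and Flt1 were under 0.2 in all 8 mice. Of the 8 members tested, 0 had an unadjusted p under 0.05 in limma, where 5.5% of all probes did (1.97% higher and 3.53% lower), and the smallest adjusted p was 0.837. Of the log2 differences 3 were positive and 5 negative, with a median of -0.023, against -0.034 over all probes tested. In whole ovary, fewer cells of a type and less RNA per cell cannot be told apart. Mice were kept 4 to a cage, and how cages or litters fell across the treatments is not given in the sources used here, so that p-values measure the spread between mice and a shared cage cannot be told apart from treatment if cages held 1 group each.

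**Figure D1:**
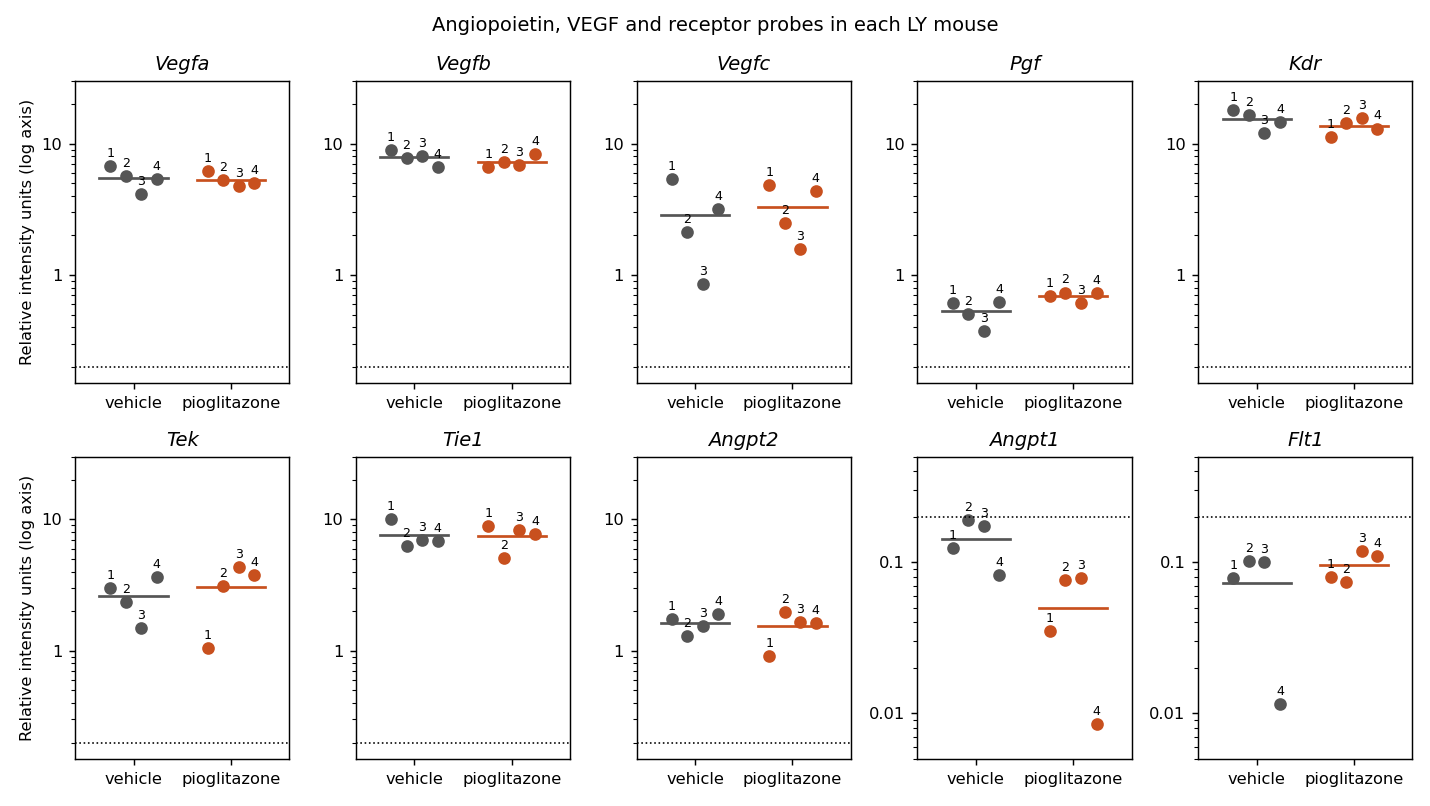
Relative intensity units (log axes) of the 10 members in the 8 LY ovaries, by treatment. Each point is 1 mouse and carries its number, a horizontal line gives the mean of a group, the dotted line is the limit of 0.2, and the axis of Angpt1 and Flt1 runs lower than that of the other 8. Kdr stayed between 11.3 and 17.9, Vegfc ran from 0.854 to 5.35, and all values of Angpt1 and Flt1 lay under the limit.

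Among the 5 ligands tested in limma, Pgf had the smallest p. Placental growth factor is a ligand of FLT1 that is made in the placenta and, at lower levels, in several adult tissues. Its values were 0.613, 0.508, 0.374 and 0.621 in vehicle-treated mice 1 to 4 and 0.690, 0.736, 0.612 and 0.734 in pioglitazone-treated mice 1 to 4. The groups overlapped narrowly, since pioglitazone mouse 3 was just below vehicle mice 1 and 4. The means were 0.529 ± 0.115 and 0.693 ± 0.058 (SD, n = 4 each), a ratio of 1.31, and the log2 difference was 0.41 (standard error 0.19, 95% interval -0.004 to 0.83, unadjusted p = 0.0516 and adjusted p = 0.837 in limma). The 2-sided exact permutation test, with 70 possible assignments, gave p = 0.0857. Pgf was higher in the pioglitazone mouse of each of the 4 replicate numbers. With the replicate number as a block its unadjusted p in limma was 0.0297 and its adjusted p 0.575, in a fit that called 8.6% of all probes. The labels do not say that mice of the same number were paired. Without vehicle replicate 3, the lowest mouse, the log2 difference was 0.26 (unadjusted p = 0.107 in limma).

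Vegfa, the main ligand of KDR, was at 6.74, 5.63, 4.12 and 5.41 in vehicle-treated mice 1 to 4 and at 6.23, 5.29, 4.78 and 4.99 in pioglitazone-treated mice 1 to 4. The range of the pioglitazone mice lay wholly inside that of the vehicle mice. The log2 difference was -0.03 (standard error 0.18), and its 95% interval runs from -0.43 to 0.37, or from 0.744-fold to 1.30-fold. Vegfb, a ligand of FLT1 linked to fatty acid uptake in other tissues, was the steadiest member. It ranged from 6.69 to 8.93 in vehicle-treated and from 6.61 to 8.32 in pioglitazone-treated mice, and its log2 difference was -0.11 (standard error 0.15, interval -0.44 to 0.22). Its within-group SD of 0.16 on the log2 scale was at the 12.5th percentile of the probes tested, whose median was 0.288.

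Vegfc, the lymphatic growth factor, varied far more between mice than between groups. It was at 5.35, 2.12, 0.854 and 3.18 in vehicle-treated mice 1 to 4 and at 4.81, 2.50, 1.58 and 4.36 in pioglitazone-treated mice 1 to 4. In both groups mice 1 and 4 were above mice 2 and 3, and mouse 3 was lowest. The highest vehicle value was 6.26 times the lowest, and the within-group SD of 0.95 was at the 97.7th percentile of the probes tested. The means were 2.87 ± 1.90 and 3.31 ± 1.53 (SD, n = 4 each), with a log2 difference of 0.36 (standard error 0.55, interval -0.89 to 1.6). With the replicate number as a block the standard error was 0.19, the interval -0.10 to 0.81 and the unadjusted p 0.106 in limma, so that no call changed. Mice 2 and 3, which were low in Vegfc, were high on the luteal list. Across the 8 mice Pearson's r of Vegfc with the mean of the luteal list was -0.78 (exact permutation p = 0.0228, adjusted p = 0.185 over all relations computed). The luteal levels fall into separate clusters of 4 mice, so that this r can rest on the gap between the clusters. The part of luteal tissue in the spread of Vegfc was not tested apart from that gap.

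**Figure D2:**
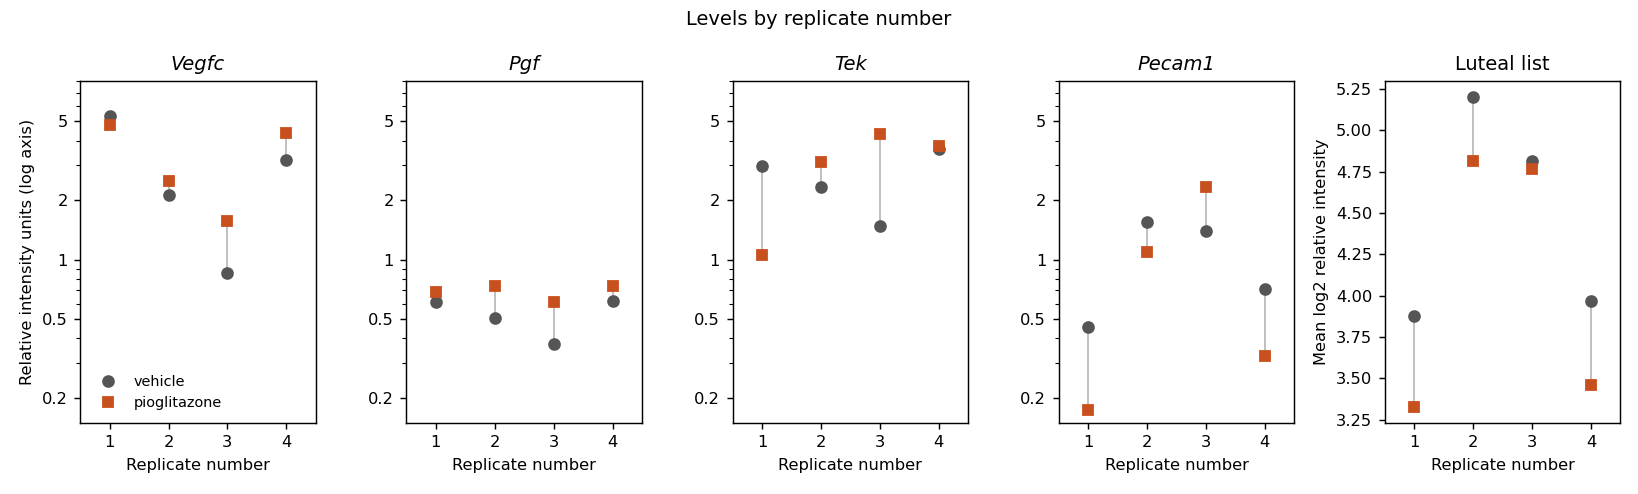
Levels by replicate number for Vegfc, Pgf, Tek and the endothelial gene Pecam1 (relative intensity units, log axes) and for the mean log2 value of 11 luteal genes (linear axis). Circles are vehicle-treated and squares pioglitazone-treated mice, and a grey line joins mice of the same number. Vegfc was at 3.18 or more in mice 1 and 4 and at 2.50 or less in mice 2 and 3 of both groups, and Pgf was higher with pioglitazone at each number. Pecam1 and the luteal list ran the other way from Vegfc. Pecam1 was chosen after its values were seen and does not stand for the endothelial list, whose mean gave Pearson's r = 0.49 with Vegfc.

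Angpt1 encodes angiopoietin 1, the activating ligand of TEK, and its probe read under 0.2 throughout. The values were 0.125, 0.190, 0.175 and 0.0823 in vehicle-treated mice 1 to 4 and 0.0350, 0.0767, 0.0789 and 0.0085 in pioglitazone-treated mice 1 to 4. All pioglitazone values were below all vehicle values, though vehicle mouse 4 and pioglitazone mouse 3 lay close together. The 2-sided exact permutation p was 0.0286, the smallest that 4 against 4 mice allow, and among the 3191 probes under 0.2 in every mouse 2.7% had groups that did not overlap, 1.44% with pioglitazone lower. Without any 1 of the pioglitazone mice the exact permutation p was 0.0571. The groups still did not overlap, and with so few assignments p moves only in large steps. Since both groups lie under the limit, no fold is given. Before the log2 values were taken, pioglitazone mice 1 and 4 were both raised to the floor of 0.05, which narrows the spread of their group. On these values, with no filter on dim probes, Angpt1 had an unadjusted p of 0.00411 and an adjusted p of 0.905 in limma. A floor of 0.2 leaves no difference to test, because every value is then the same.

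Angpt2, which can oppose angiopoietin 1 at TEK, was at 1.75, 1.28, 1.55 and 1.89 in vehicle-treated mice 1 to 4 and at 0.914, 1.96, 1.64 and 1.63 in pioglitazone-treated mice 1 to 4. Pioglitazone mouse 2 was the highest of all mice and pioglitazone mouse 1 the lowest. The log2 difference was -0.11 (standard error 0.24, interval -0.66 to 0.44). Without pioglitazone replicate 1 it was 0.12, so no direction can be given.

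Of the receptors, Kdr, which carries most VEGF-A signals into endothelium, was well above the limit in all mice. It was at 17.9, 16.7, 12.1 and 14.7 in vehicle-treated mice 1 to 4 and at 11.3, 14.3, 15.7 and 13.05 in pioglitazone-treated mice 1 to 4. The groups overlapped, with pioglitazone mouse 1 lowest and vehicle mouse 3 next. The means were 15.4 ± 2.5 and 13.6 ± 1.9 (SD, n = 4 each), and the log2 difference of -0.17 had an interval from -0.56 to 0.22, or from 0.680-fold to 1.16-fold. Tie1, the partner receptor of TEK, was at 10.1, 6.32, 6.96 and 6.84 in vehicle-treated mice 1 to 4 and at 8.87, 5.06, 8.33 and 7.72 in pioglitazone-treated mice 1 to 4. Mouse 1 was the highest of each group for Tie1, and the log2 difference was -0.02 (standard error 0.22).

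Tek, the angiopoietin receptor, was the most variable receptor, with a within-group SD of 0.77 on the log2 scale (95.2nd percentile of probes tested). It was at 2.98, 2.33, 1.48 and 3.64 in vehicle-treated mice 1 to 4 and at 1.05, 3.12, 4.34 and 3.75 in pioglitazone-treated mice 1 to 4. Pioglitazone mouse 1 was the lowest of all 8 mice, and the other pioglitazone mice lay between 3.12 and 4.34. The log2 difference was 0.13 (standard error 0.45, interval -0.89 to 1.14), and 0.58 without pioglitazone replicate 1 (unadjusted p = 0.0851 in limma). Pioglitazone mouse 1 was lowest of the 8 in Tek, Angpt2, Kdr and Vegfb, and it is the mouse with the highest adipocyte list. In Tie1 (8.87), Vegfa (6.23) and Vegfc (4.81) the same mouse was below only vehicle mouse 1. The part of adipose tissue in these values was not tested.

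Flt1 encodes VEGFR1, and its probe was at 0.0782, 0.102, 0.101 and 0.0116 in vehicle-treated mice 1 to 4 and at 0.0801, 0.0744, 0.119 and 0.111 in pioglitazone-treated mice 1 to 4. All 8 values were under the limit, and the groups overlapped (2-sided exact permutation p = 0.429). The probe of Cdh5, which encodes the endothelial VE-cadherin, was likewise under 0.2 in all 8 mice. Of the 21 endothelial genes on the array, 19 reached the level at which a probe was tested. No level of Flt1 can be given from its probe.

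**Figure D3:**
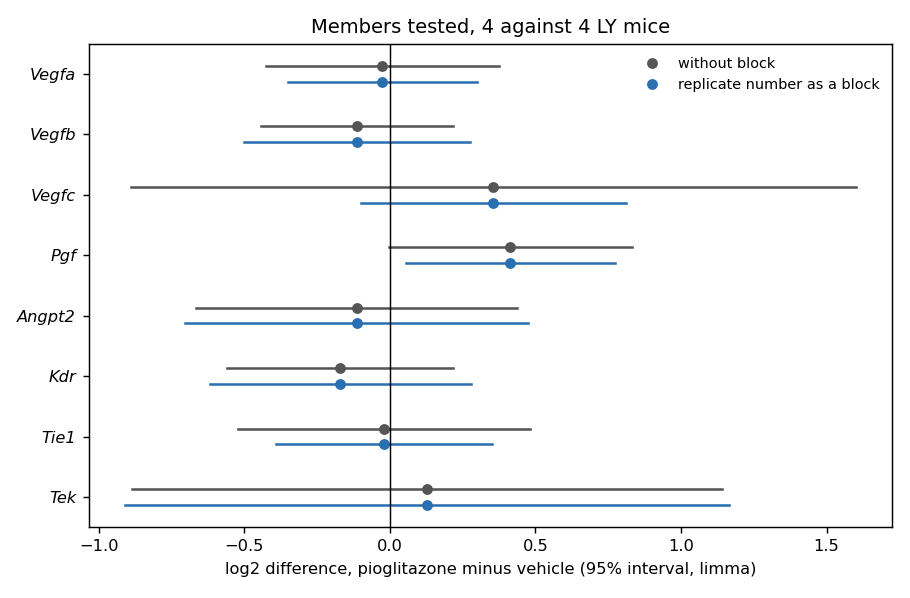
Log2 difference between pioglitazone-treated and vehicle-treated LY mice for the 8 members tested, with 95% intervals from limma, fitted both without and with a block for the replicate number. All intervals include 0 except that of Pgf with the block, which runs from 0.055 to 0.77, and the interval of Vegfc is much shorter with the block.

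Across the 8 mice the members were set against the mean log2 level of 16 other endothelial genes. Kdr gave Pearson's r = 0.78 (exact permutation p = 0.0231, adjusted p = 0.185 over 16 relations computed) and Spearman's rho = 0.79 (exact permutation p = 0.0279, adjusted p = 0.244). The 16 relations are those of the 8 members tested with the endothelial list and with the luteal list. Without vehicle mice 1 and 3, which lay farthest from the median of the endothelial level, r for Kdr was 0.54. For the other 7 members r ran from 0.21 (Pgf) to 0.58 (Tie1), with adjusted permutation p of 0.393 or more, and 0 of the relations passed an adjusted p of 0.05. Each replicate number holds only 2 mice, too few for a value within a number, and r for Kdr was 0.75 after removal of the group means. The relations depended on the normalization. After quantile normalization the 2 mice farthest from the median were vehicle mouse 3 and pioglitazone mouse 1, a different pair. Then r was 0.68 for Kdr (-0.27 without that pair) and -0.079 for Vegfa. For Tek r was 0.85 (exact permutation p = 0.00603, adjusted p = 0.0965), and 0.52 without that pair. For Tie1 r was 0.335 (0.926 without that pair), and again 0 relations passed an adjusted p of 0.05. Pecam1, a junction protein of endothelium and blood cells that was chosen here after its values were seen, was at 0.458, 1.56, 1.39 and 0.712 in vehicle-treated mice 1 to 4 and at 0.173, 1.09, 2.33 and 0.327 in pioglitazone-treated mice 1 to 4, high where Vegfc was low. Pecam1 does not stand for its list, since the mean of the 16 endothelial genes gave r = 0.49 with Vegfc (-0.32 without vehicle mice 1 and 3).

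As a description, the named genes with the pattern across mice most like that of Kdr were Ccdc90b (Pearson's r = 0.96 over 8 mice), Cr1l (0.94) and Tnfrsf9 (0.93), of 15229 probes compared. Those most like Vegfa were Rbbp4 (0.995), Tigar (0.990) and Cyth2 (0.987), those most like Tek were Tk2, Glb1l and Eloa (0.992 to 0.983), and those most like Angpt2 were Smc3, Mettl7a2 and Ranbp10 (0.962 to 0.958). None of these genes is a member of the pathway lists, and no p is given.

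Of 115 genes tested from 7 lists of the pathway, 5 had an unadjusted p under 0.05 in limma (4.35%, against 5.5% of all probes), 2 higher and 3 lower with pioglitazone. With the replicate number as a block 11 did (9.57%, against 8.6% of all probes). Their median log2 difference was -0.13, against -0.034 over all probes, and 37 of the 115 were positive, where 44.3% of all probes were. Other members of the family numbered 9, and 0 were called. Flt4, the receptor of VEGF-C on lymphatic vessels, had means of 4.20 ± 0.99 and 3.30 ± 0.57 (SD, n = 4 each; log2 difference -0.34, standard error 0.20). The semaphorin genes Sema3e and Sema3a, whose products guide vessels and axons, had means of 0.897 and 1.12, and of 0.211 and 0.262. Nrp1, the neuropilin coreceptor of KDR, had means of 5.74 and 4.77, and pioglitazone mouse 1 was again the lowest mouse, at 0.916.

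Of 34 genes of signalling below these receptors, 1 was called, where 5.5% of all probes were called. Prkcb, a protein kinase C, had means of 0.203 and 0.322, with vehicle mice 1 and 2 under 0.2 (log2 difference 0.73, standard error 0.32). Foxo1, a transcription factor that AKT turns off, had means of 55.3 ± 5.0 and 42.6 ± 10.0, and Akt1 had means of 23.9 ± 3.2 and 18.9 ± 2.5 (SD, n = 4 each), with unadjusted p of 0.0535 and 0.0625 in limma. With the replicate number as a block 3 genes were called, Prkcb, Akt1 (lower) and Prkca (lower). Of 11 hypoxia regulators and 12 hypoxia targets, which include genes known to act on or with Vegfa when oxygen is low, 0 were called. The smallest p among the regulators was that of Arnt, the partner of HIF-1α, with means of 1.95 and 1.65, followed by Vhl, whose product marks HIF for destruction (0.782 and 0.677), and Egln1, an oxygen-sensing hydroxylase (0.568 and 0.727). Car9, a carbonic anhydrase induced by HIF, had means of 3.07 and 2.26 (unadjusted p = 0.0545 in limma) and was called, as lower, with the block. Hypoxia targets called numbered 1 also in 6 of the other alternatives (0.2 or more on all arrays, a variance trend with intensity, or vehicle mice 1 or 4 or pioglitazone mice 1 or 3 left out) and 2 in 3 against 3 mice. Hmox1 (heme oxygenase) had means of 21.4 and 16.5 and Adm (adrenomedullin, a vessel-dilating peptide) of 0.391 and 0.471.

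Of 15 tip cell and Notch genes, 2 were called, where 5.5% of all probes were called. Aplnr, the apelin receptor of sprouting endothelium, was at 0.922, 0.959, 0.999 and 0.939 in vehicle-treated mice 1 to 4 and at 1.07, 1.09, 1.37 and 1.41 in pioglitazone-treated mice 1 to 4. All pioglitazone values of Aplnr were above all vehicle values, as in 4.59% of probes tested in either direction (log2 difference 0.36, standard error 0.14, unadjusted p = 0.0321 and adjusted p = 0.837 in limma). The Notch ligand gene Dll1 was lower, with means of 0.257 and 0.154 that lie on either side of the limit, while Esm1, a secreted product of tip cells, had means of 0.217 and 0.295. Of 18 other angiogenic factors and receptors, Met, the receptor of hepatocyte growth factor, was called. It was at 4.87, 5.44, 4.75 and 4.45 in vehicle-treated mice 1 to 4 and at 3.39, 4.29, 3.99 and 3.18 in pioglitazone-treated mice 1 to 4, with no overlap (log2 difference -0.40, standard error 0.15). Tgfb1 had means of 6.86 and 4.79, and Prok1, which encodes an endothelial mitogen of steroid-making tissues, of 6.90 and 5.44. Tgfb1 was called, as lower, with the block.

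Angiogenesis inhibitors had the lowest median of these lists. Of 16 tested, 13 had negative log2 differences, with a median of -0.35, and 1 was called. Over all probes 44.3% had positive log2 differences and 5.5% were called, 3.53% as lower. Cxcl10, a chemokine that restrains vessel growth, had means of 1.84 ± 0.23 and 1.31 ± 0.36 (SD, n = 4 each; log2 difference -0.53, standard error 0.21). Thbs1 (thrombospondin) had means of 0.431 and 0.268, and Sparc, a matrix glycoprotein, of 168 and 114, neither at an unadjusted p under 0.05 in limma. With the block, which called 8.6% of all probes, 3 were called, all lower: Cxcl10, Sparc and Adamts1. Among vessel wall markers, 1 of 19 endothelial genes was called, Emcn (endomucin), which was lower, with means of 14.1 ± 1.8 and 10.4 ± 1.6. Tal1, a transcription factor of blood and endothelium, had means of 28.2 and 23.3, and Cldn5, a tight junction gene, of 1.24 and 2.71 with pioglitazone mouse 4 at 5.74. With the block Emcn and Cldn5 (higher) were called. The summed level of 16 endothelial genes other than the members ranged from 89.6 to 136.2 in vehicle-treated and from 92.8 to 115.7 in pioglitazone-treated mice.

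Of 13 pericyte and smooth muscle genes 2 were called, both genes of contractile smooth muscle and both higher, where 5.5% of all probes were called and 1.97% as higher. With the block Des, which encodes the muscle filament desmin, was called too (higher). Cnn1 (calponin) had means of 18.1 and 28.2 and Myh11 (smooth muscle myosin) of 60.8 and 78.5, and the values of Myh11 did not overlap. Cspg4, a pericyte proteoglycan, had means of 0.758 and 0.931, and the list had a median of -0.08. Of 6 lymphatic genes 0 were called, and Prox1, the transcription factor that sets lymphatic identity, had means of 2.57 and 2.13, and Pdpn (podoplanin) of 18.8 and 15.5. 

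The 8 called genes of the pathway and vessel lists kept their direction with each array left out in turn, and none passed an adjusted p of 0.05 in limma, but each lost its call without some arrays. Emcn lost it without vehicle mice 1 or 2 or pioglitazone mouse 1 (log2 differences from -0.54 to -0.36 over all arrays left out), and Met without vehicle mouse 2 or pioglitazone mice 1 or 4 (-0.47 to -0.33). Aplnr lost it without vehicle mice 1, 2 or 4 or pioglitazone mice 3 or 4 (0.29 to 0.42), and Cxcl10 without vehicle mice 1, 2 or 4 or pioglitazone mice 1 or 2 (-0.69 to -0.40). Dll1 lost it without vehicle mice 1, 3 or 4 or pioglitazone mice 1 or 3 (-1.06 to -0.60), and Prkcb without vehicle mice 1 or 2 or pioglitazone mice 2, 3 or 4 (0.50 to 0.94). Cnn1 kept its call only without vehicle mouse 2 or pioglitazone mouse 4 (0.48 to 0.82), and Myh11 only without vehicle mice 1 or 3 (0.25 to 0.44). Other processing ended calls too. In 3 against 3 mice those of Met, Cnn1, Myh11 and Dll1 were lost, with cyclic loess normalization those of Met, Emcn and Prkcb, with quantile normalization those of Emcn and Prkcb, with the test named in the methods those of Cnn1, Dll1 and Prkcb, and with no filter on dim probes those of Myh11 and Prkcb. Those of Dll1 and Prkcb were also lost with values under 0.2 raised to 0.2 and with probes kept only at 0.2 or more on all arrays, and that of Prkcb with a variance trend with intensity. The call of Aplnr and that of Cxcl10 were kept under these alternatives.

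**Figure D4:**
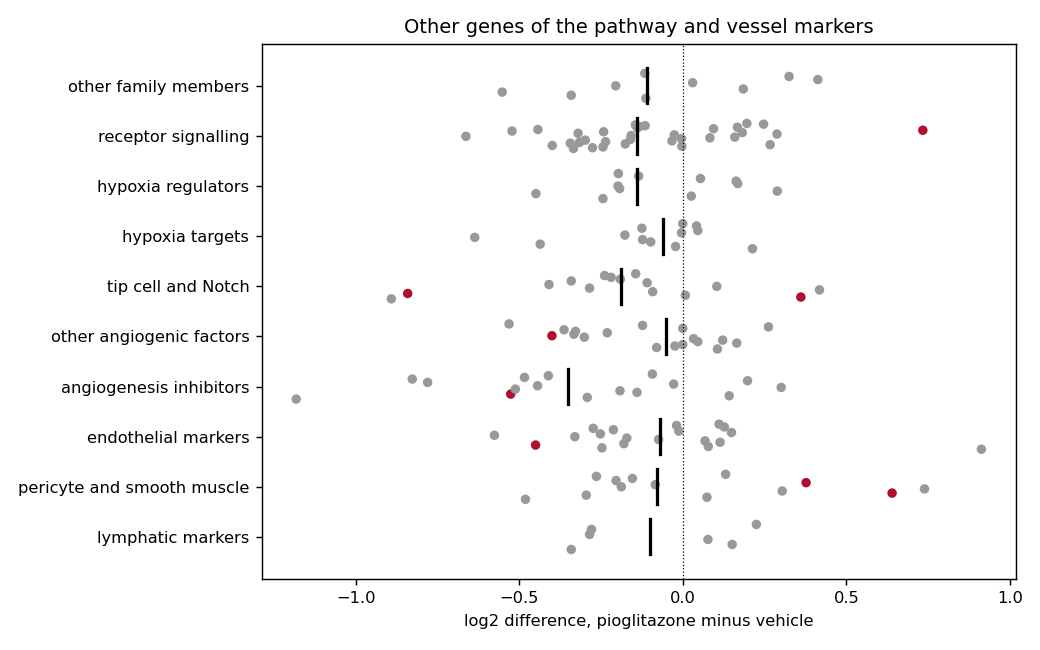
Log2 difference between pioglitazone-treated and vehicle-treated LY mice for each tested gene of 10 lists, with the median of the list as a black line. Red points have an unadjusted p under 0.05 in limma, and vertical scatter within a list carries no meaning. Angiogenesis inhibitors have the lowest median, at -0.35, and red points lie on both sides of 0.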

How the data were processed

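Ovarian RNA of 8 LY mice was measured on 1-colour CodeLink Whole Mouse Genome Bioarrays, 1 array per mouse, with 4 vehicle-treated and 4 pioglitazone-treated mice grouped by sample title. The deposited values are linear intensities. The authors scanned the slides with an Axon GenePix scanner, the CodeLink software corrected the background, and GeneSpring divided each slide by its median. Division by a median for each gene, also named in the methods, left no trace in the deposited values. Spots coded as missing were treated as such, on 340 of the 36227 probes, none of them a member. The number of arrays limits the precision.

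Here the arrays were scaled to a median of 1, a floor of 0.05 was set, and limma 3.58.1 (R 4.3.3) was fitted to the log2 values, p-values being adjusted by Benjamini-Hochberg over 30634 probes. Probes with fewer than 3 values in a group, or with both group means under 0.2, were left out. Probes were named from the platform annotation, with 21615 assigned to 1 gene, 681 to several genes and 13931 to none, and none was named from several genes. Each list gene entered with its brightest probe tested. Single values were tested with a 2-sided exact permutation test. The fit was tested on simulated data.

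The members, lists and tests were chosen with earlier results of these data known. The text names all members, the 3 genes with the smallest p of each list of the pathway and of vessel markers (the same rule for the tissue lists, of which only called genes are named), and the 3 genes most like Vegfa, Kdr, Tek and Angpt2 among probes with a mean of at least 0.5. Genes named outside this rule were chosen after their values were seen: Nrp1, Vegfd, Hif1a, Pgk1, Slc2a1, Pdk1 and Pecam1, and genes called with the block but not without it, such as Prkca and Adamts1. Cdh5 is named for its low probe. Arrays with the same replicate number correlated after removal of group means, at 0.515, 0.181, 0.274 and 0.232. The labels give these numbers but do not say that mice of the same number were paired. The replicate block rests on these correlations in the same data, so that its p-values and intervals are an alternative only. The fit without a block is reported, as in the methods, and the blocked calls beside it where they differ. Alternatives were other floors, normalizations, filters and variance models, the test named in the methods, the replicate block, each array left out, and 3 against 3 mice. Of 18 lists, those of luteal, granulosa, theca and stroma, oocyte, macrophage, adipocyte, red blood cell and oviduct genes served to describe the tissue.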

Additional observations from a re-analysis of the deposited data

Results flagged for a closer look

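Tie1 in vehicle mouse 1 was at 10.1, far above the other vehicle mice, which lay between 6.32 and 6.96. It was the 1 value so far from its group in 20 groups of 4 member values, and chance gives about 1 in 20. Pioglitazone mouse 1 was also the highest of its group for Tie1, at 8.87. Without vehicle replicate 1 the log2 difference of Tie1 was 0.13, against -0.02 with all mice.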

How the results depend on the processing

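Of the members tested, Pgf, Vegfb and Kdr kept their direction under every alternative run, and 0 probes passed an adjusted p of 0.05 in limma under any of them, with 1685 at unadjusted p under 0.05. That count was 2635 with the replicate block, 2574 in 3 against 3 mice, and 737 to 2443 with 1 array left out, the lowest without pioglitazone replicate 4. The count of members called was 0, and 1 with values under 0.2 raised to 0.2, only probes at 0.2 or more on all arrays, a variance trend with intensity, the replicate block, or vehicle replicate 1 or 4 left out (Pgf in each), and 1 with no filter on dim probes (Angpt1). With 1 array left out it was 0 to 1. Of 224 genes tested from all lists, other than the members, 12 were called, where 5.5% of all probes were. With the replicate block 26 were called, where 8.6% of all probes were. The count was 26 in 3 against 3 mice and 5 to 22 with 1 array left out. It was 6 without vehicle replicate 1, 22 without pioglitazone replicate 1 and 5 without pioglitazone replicate 4. The replicate block changed no call of a member other than Pgf (unadjusted p = 0.0297 in limma). Signs turned, with no call, for Tie1 (0.051 with quantile and 0.062 with cyclic loess normalization), Vegfa (0.051 and 0.050), Angpt2 (0.103 in 3 against 3 mice) and Vegfc (-0.183 with array weights, -0.356 in 3 against 3 mice). With 1 array left out log2 differences ran from -0.25 to 0.12 for Angpt2, -0.12 to 0.58 for Tek, -0.11 to 0.16 for Tie1, -0.156 to 0.081 for Vegfa, and -0.13 to 0.75 for Vegfc. The cause of these changes was not tested. The exact permutation p of Angpt1 was 0.0571 without any 1 pioglitazone mouse and 0.0286 without any 1 vehicle mouse, with no overlap in either case. In 3 against 3 mice the smallest p possible is 0.10. Probes under 0.2, those of Angpt1 and Flt1, give no level here.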

Other observations

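Vehicle mouse 3 had the lowest value of the 8 mice in Vegfa, Vegfc, Pgf and the further ligand Vegfd, at 4.12, 0.854, 0.374 and 2.49. It was also lowest in Hif1a (3.64), which encodes the oxygen-regulated subunit of HIF, and in the hypoxia targets Pgk1 (18.1) and Slc2a1 (2.07). In the hypoxia targets Pdk1 (3.81) and Hmox1 (35.2) it was the highest of the 8 mice. The summed hypoxia targets were lower in vehicle mouse 4 and in pioglitazone mice 1 and 4. These genes were chosen after their values were seen. Over all probes 5.5% were called, 8.6% with the replicate block, and 44.3% had positive log2 differences. Of the macrophage list, 9 of 10 genes tested had negative log2 differences with pioglitazone, with 0 called, and 2 (C1qa and Fcgr1, lower) with the replicate block. Of the granulosa list 11 of 11 were positive, where 44.3% of all probes were, with Fst called, and Fst and Nr5a2 (higher) with the block. Of the luteal list 9 of 11 were negative with 0 called, and 4 were called with the block, all lower. On this list mice 2 and 3 of each group lay above mice 1 and 4, a split by number that the block takes out. Of the oviduct and surface epithelium list 2 of 8 were called, Upk3b (means of 0.345 and 0.219) and Lrrn4 (0.706 and 0.513), both lower and without overlap, where 5.5% of all probes were called, 3.53% as lower, and 4.59% did not overlap. The oocyte list had Padi6 called (lower), a call that was lost with the block, and the theca and stroma, adipocyte and red blood cell lists had 0 called. With the block Star, a theca and stroma gene as well as a luteal one, was called (lower).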
